A study of Mus musculus with 6 samples.

Results

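The Norrin and Fzd4 signalling genes are 10 mouse genes, chosen by their symbols from the 31053 genes of the deposited count tables, and all 10 were found. They comprised the ligand gene Ndp, the receptor complex genes Fzd4, Lrp5, Lrp6 and Tspan12, the transcription genes Ctnnb1 and Lef1, the target and inhibitor genes Axin2 and Apcdd1, and the junction gene Cldn5. Another 77 genes of the Wnt and barrier pathways were listed beside them as background. The study profiled dissociated mouse retina by droplet single-cell RNA sequencing in oxygen-induced retinopathy (OIR), a model of ischaemic retinopathy in which high oxygen stops vessel growth in pups and a return to room air leaves the retina short of oxygen. The 3 OIR samples came from pups kept in 75% oxygen from postnatal day 7 to day 12 and then in room air for 5 days, and the 3 Ctrl samples from pups kept in room air. Both groups were sampled at postnatal day 17, each sample pooled 2 mice, and the strain and genotype of the sequenced pups are not stated in the labels. Whether the 3 samples of a group were separate litters is not stated either, so p-values measure the spread between these pools.

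Norrin, the product of Ndp, is a small secreted protein that Müller glia of the retina release. On endothelial cells it binds Frizzled-4 (Fzd4) together with the co-receptors Lrp5 or Lrp6, and the tetraspanin Tspan12 strengthens the complex. The bound receptor stabilises β-catenin, encoded by Ctnnb1, which enters the nucleus and acts with factors such as Lef1, and in the retina the pathway is known for building the deep vessel layers and for keeping the blood-retina barrier, of which claudin-5 (Cldn5) is a tight junction protein and Plvap, a protein of leaky fenestrated vessels, is a counter-marker.

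The 6 libraries held between 15788524 and 42606878 unique molecular identifiers (UMIs, the count of original RNA molecules), and 38569 of 47631 deposited barcodes passed the cell filter, between 5371 and 7470 per sample. Cells fell into 21 clusters, of which 19 were named from marker genes as 11 cell types, with the suffix -like, and 1038 cells in the remaining clusters stayed unnamed. The source label of the samples names retinal endothelial cells, but only 202 cells were vascular endothelial cell-like (VEC-like) and 24993 were rod-like, so the libraries are described here as whole retina. VEC-like cells numbered 25, 3 and 5 in OIR-1, OIR-2 and OIR-3 and 149, 4 and 16 in Ctrl-1, Ctrl-2 and Ctrl-3. Of the 12 endothelial naming markers, the 5 VEC-like cells of OIR-3 held UMIs of only 3, at 654 summed CPM (counts per 1000000 UMIs of the summed cells), against between 12097 and 14373 CPM in the Ctrl samples and 6595 and 15163 CPM in OIR-1 and OIR-2. Rod markers summed to 9321 CPM in those 5 cells. The log2 fold changes of Fzd4, Ctnnb1, Lef1 and Cldn5 in VEC-like cells are therefore given with and without OIR-3. Other endothelial values include OIR-3. In OIR-2, only 1 of the 3 VEC-like cells held UMIs of at least 2 endothelial markers. That cell held 7478 of the 10420 UMIs of the 3 cells. Endothelial values of OIR-2 therefore rest mostly on 1 cell, also where OIR-3 is left out. The 4 erythrocyte markers, which are haemoglobin genes, summed to 12042 CPM in VEC-like cells of Ctrl-1 and to at most 164 CPM in the other samples. Their part in the Ctrl-1 values was not tested. Ctrl-2 and Ctrl-3 held Xist, the RNA of the inactive X chromosome, at 1798 and 1998 CPM and almost no Y-linked RNA, whereas Ctrl-1 and the OIR samples held Y-linked RNA between 212.9 and 262 CPM, a split that runs through the Ctrl group. A total of 254 barcode sequences occurred in more than 1 library. Barcodes with few UMIs were not part of the files, so RNA free in solution could not be measured directly.

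Gene positions are those of the mouse assembly GRCm38. Ndp (ENSMUSG00000040138) is at chrX:16885521-16911774 on the minus strand, Fzd4 (ENSMUSG00000049791) at chr7:89404355-89413134 on the plus strand and Cldn5 (ENSMUSG00000041378) at chr16:18776847-18778262 on the plus strand. Lrp6 and Tspan12 share chromosome 6 without being neighbours, at chr6:134446476-134566965 and chr6:21771395-21852515. The 100 bases before the RefSeq start site of the 3 genes whose RNA was most restricted by cell type, or whose receptor defines the pathway, are shown for comparison, with each CG dinucleotide in capitals. They come from GRCm38.p6, at chrX:16911775-16911874, chr7:89404266-89404365 and chr16:18776747-18776846.
Ndp: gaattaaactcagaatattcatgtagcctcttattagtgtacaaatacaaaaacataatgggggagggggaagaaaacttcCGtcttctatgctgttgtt
Fzd4: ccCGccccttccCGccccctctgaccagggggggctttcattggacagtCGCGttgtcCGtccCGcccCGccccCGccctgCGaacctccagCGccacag
Cldn5: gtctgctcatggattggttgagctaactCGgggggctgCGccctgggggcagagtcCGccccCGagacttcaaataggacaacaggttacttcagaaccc
The stretch before Ndp held 1 CG dinucleotide and 36% G or C bases, that before Cldn5 4 and 59%, and that before Fzd4 10 and 74%. Over 32817 promoters of that length the median was 3, and 79.3%, 44.0% and 18.6% of them held at least as many as Ndp, Cldn5 and Fzd4. These are features of the sequence and say nothing of its use in these cells.

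Ndp RNA, the ligand message, was a Müller-like product in every sample. Of the 988 Ndp UMIs in kept cells, 934 lay in Müller-like cells. By sample, the Müller-like share was 96.6%, 95.6% and 98.0% in OIR-1, OIR-2 and OIR-3 and 86.7%, 93.5% and 94.7% in Ctrl-1, Ctrl-2 and Ctrl-3. The OIR shares all lay above the Ctrl shares, with a mean of 96.7% ± 1.2 (SD, n = 3) against 91.6% ± 4.3 (SD, n = 3). The two-sided exact permutation test gave p = 0.1, the smallest value that 3 against 3 samples allow. Such a share also depends on how many Müller-like cells a library held. They numbered 967, 535 and 602 of 6056, 5502 and 7470 kept cells in OIR-1, OIR-2 and OIR-3. In Ctrl-1, Ctrl-2 and Ctrl-3 they were 954, 305 and 271 of 7146, 5371 and 7024. The part of these numbers in the difference of shares was not tested. With a mitochondrial limit of 10% the groups overlapped, since Ctrl-3 stood at 98.6%, and the difference was 3.40 percentage points (exact permutation p = 0.3). With clusters made without integration of the groups, the difference turned from 5.09 to −3.45 percentage points. The shares were then 91.8%, 81.0% and 82.3% in OIR-1, OIR-2 and OIR-3 and 85.5%, 88.0% and 92.0% in Ctrl-1, Ctrl-2 and Ctrl-3. There, a cluster of 2241 cells stayed unnamed, led by Ndufa4l2 and Dbi like the shallower Müller-like cluster of the main clusters. No cluster there was named astrocyte-like. The part of either difference in the turn was not tested. In cells thinned to 1000 UMIs each, the Müller-like share was between 88.5% and 93.8% in OIR and between 72.7% and 92.3% in Ctrl, over only 11 to 41 remaining Ndp UMIs per sample.

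The level of Ndp in Müller-like cells overlapped between the groups. OIR-1, OIR-2 and OIR-3 held 343, 131 and 144 Ndp UMIs, or 44.0, 40.5 and 45.9 CPM. Ctrl-1, Ctrl-2 and Ctrl-3 held 144, 101 and 71 UMIs, or 25.1, 41.6 and 42.4 CPM. Ctrl-1 stood alone at the low end, and the other 5 samples lay between 40.5 and 45.9 CPM. The log2 fold change, OIR against Ctrl, was 0.23 ± 0.21 (SE) with an adjusted p of 0.67 in edgeR's quasi-likelihood test. Without Ctrl-1 it was −0.01, and with a term for the Xist-bearing libraries it was 0.74 with an adjusted p of 0.060. Both Xist-bearing libraries were Ctrl samples, so that term compares the OIR samples with Ctrl-1 alone.

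**Figure D1:**
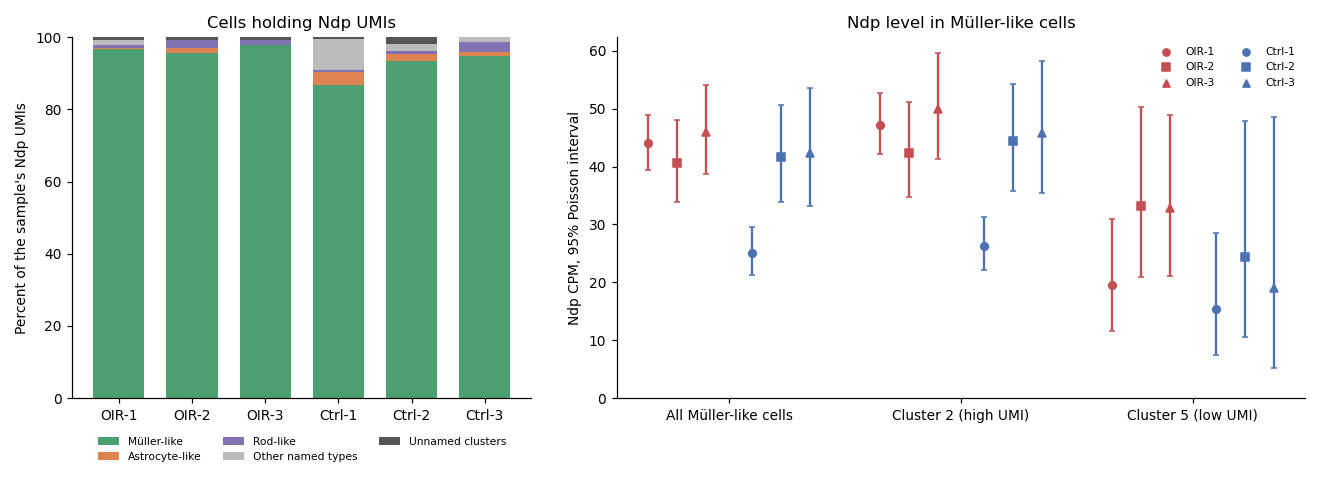
Left, the percent of each sample's Ndp UMIs that lay in each cell type (stacked bars, percent). Right, Ndp CPM in all Müller-like cells and in their 2 clusters, 1 point per sample with a 95% Poisson interval that covers counting error only. Müller-like cells held between 86.7% and 98.0% of Ndp UMIs, and Ctrl-1 lay below the other samples in cluster 2.

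The 2 clusters of Müller-like cells both held Ndp. In the larger one, cluster 2, with medians of 7496 to 11734 UMIs per cell, Ndp stood at 47.2, 42.4 and 49.9 CPM in the OIR samples and at 26.4, 44.3 and 45.8 CPM in the Ctrl samples. In the shallower cluster 5, with medians of 1526 to 2566 UMIs, it stood at 19.6, 33.3 and 32.9 CPM in OIR and at 15.5, 24.3 and 19.0 CPM in Ctrl, resting on 4 to 24 UMIs per sample. Ctrl-1 was the lowest sample in each cluster, and the groups overlapped in each.

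The other glia of the retina, astrocyte-like cells, also held Ndp, though on 12 UMIs in 58 cells. OIR-1, OIR-2 and OIR-3 gave 1, 2 and 0 UMIs and Ctrl-1, Ctrl-2 and Ctrl-3 gave 6, 2 and 1. In CPM these were 4.02, 11.8 and 0 against 19.6, 57.8 and 55.2, which do not overlap, but 1 to 6 UMIs per sample set every value above 0 and the cell type was too small to test. Rods, which should lack the gene, gave between 0.11 and 0.36 CPM, and microglia-like and retinal pigment epithelium-like (RPE-like) cells gave no Ndp UMI in any sample. In order of mean level over the 6 samples, Müller-like cells stood first at 39.9 ± 7.5 CPM (SD), astrocyte-like cells second at 24.7 ± 25.5 CPM and then amacrine-like cells at 2.45 ± 3.05 CPM, and neighbours in this order overlapped in their range. Over 55 sums of cell types and samples, the genes with the pattern most like that of Ndp were Slc13a5, Tnfaip6, Sphk1, Entpd2 and Sox8, with Pearson correlations of log2(CPM + 1) between 0.907 and 0.918, which describe these sums and share their libraries and cell types.

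**Figure D2:**
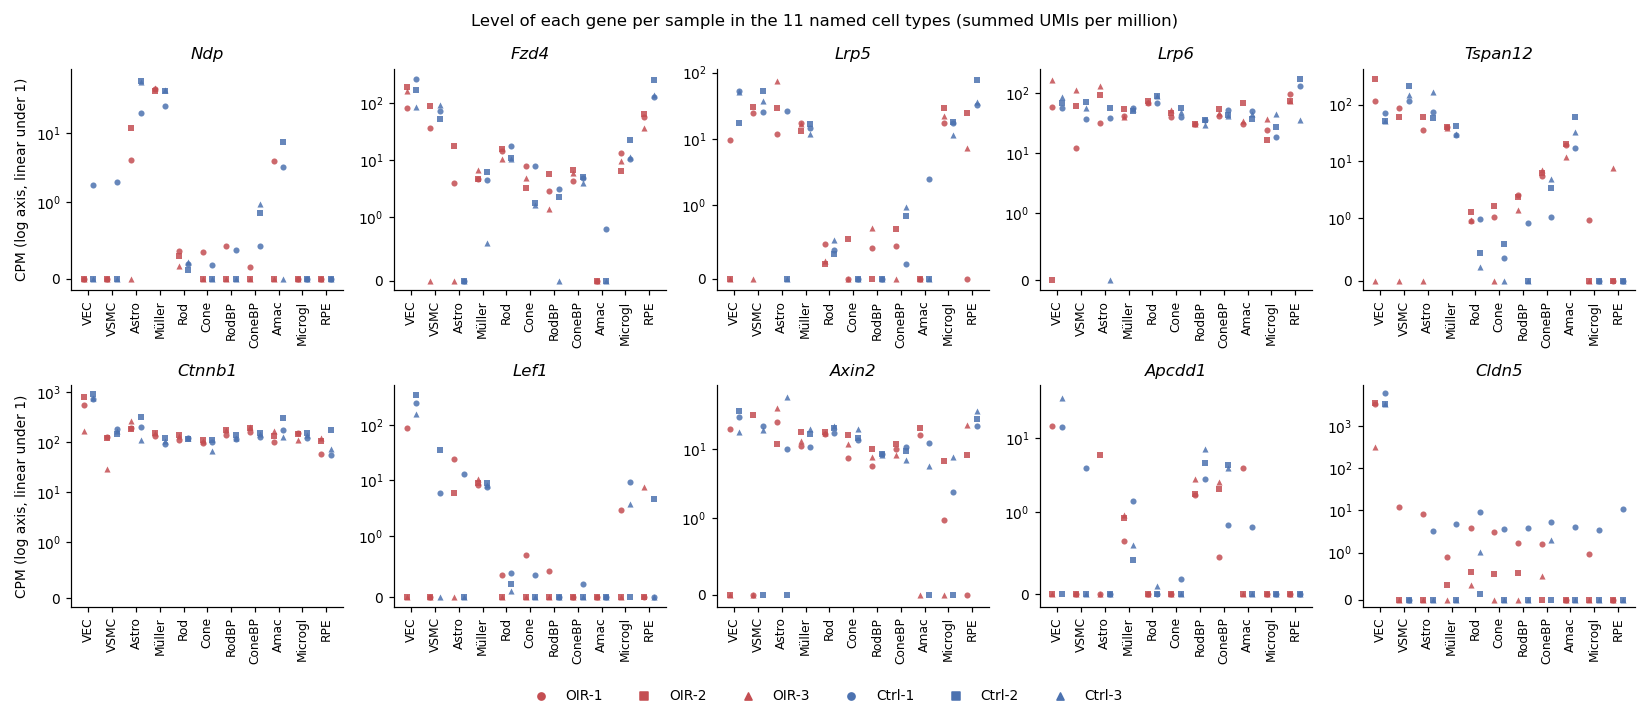
CPM of each of the 10 genes (vertical log axis, linear under 1 CPM) in the 11 named cell types (horizontal axis), 1 point per sample, red for OIR and blue for Ctrl. Ndp peaks in Müller-like and astrocyte-like cells, Cldn5 and Lef1 in VEC-like cells, while Lrp6 and Ctnnb1 are spread over all types.

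Fzd4, the Norrin receptor, had its highest mean level in VEC-like cells at 161.5 ± 71.0 CPM (SD, n = 6), before RPE-like cells at 114 ± 79.7 CPM and cells like vascular smooth muscle (VSMC-like) at 58.2 ± 35.9 CPM. The ranges of these neighbours overlapped. Rod-like cells stood at 13.4 ± 3.2 CPM and microglia-like cells at 12.4 ± 5.4 CPM, and the remaining types had means of at most 5.16 CPM. Because rods were so numerous, they held between 15.3% and 78.3% of a sample's Fzd4 UMIs, against between 0.54% and 51.9% in VEC-like cells. In Ctrl-1, 85 of 2212 rod-like cells (3.84%) had an Fzd4 UMI at a median of 2136 UMIs per cell, against 109 of 149 VEC-like cells (73.2%, exact 95% interval 65.3% to 80.1%) at a median of 6880. Amacrine-like cells, by contrast, gave 1 Fzd4 UMI in all samples together.

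In VEC-like cells, Fzd4 gave 17, 2 and 1 UMIs in OIR-1, OIR-2 and OIR-3 and 308, 10 and 5 in Ctrl-1, Ctrl-2 and Ctrl-3. These were 82.4, 192 and 164 CPM against 272, 174 and 85.9 CPM, and the groups overlapped. For Fzd4 the log2 fold change there was −1.003 ± 0.667 (SE) with an adjusted p of 0.79 in edgeR, and −1.01 without OIR-3. Without OIR-1 it was −0.35. OIR-2 and OIR-3 rest on 2 and 1 UMIs. In these summed counts, fewer RNA molecules per cell and a different mix of cells within a type cannot be told apart. Among the genes with the pattern most like that of Fzd4 were Abcc4, Nid2 and Slco1a4, with correlations between 0.794 and 0.799.

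The largest log2 fold change among the tested pairs of these genes was that of Fzd4 in RPE-like cells, the pigmented layer behind the photoreceptors, which came along in 17 to 74 cells per sample. Fzd4 gave 3, 8 and 5 UMIs in the OIR samples and 12, 56 and 4 in the Ctrl samples. In CPM, OIR-1, OIR-2 and OIR-3 stood at 58.2, 65.1 and 37.1 and Ctrl-1, Ctrl-2 and Ctrl-3 at 129, 253 and 142. All OIR values lay below all Ctrl values, and 19.3% of all tested gene and cell type pairs had no overlap in either direction. The Fzd4 means were 53.5 ± 14.6 CPM in OIR and 175 ± 67.8 CPM in Ctrl (SD, n = 3 each). The log2 fold change was −1.92 ± 0.47 (SE), with an unadjusted p of 0.00048 and an adjusted p of 0.44 in edgeR, so it did not pass the threshold over the 1819 genes tested there. The summed RPE markers overlapped between groups, at 15440 to 16981 CPM in OIR and 14599 to 24432 CPM in Ctrl, where Ctrl-2 stood highest. Endothelial markers were at 77.5 to 383 CPM in OIR and 142 to 205 CPM in Ctrl. Rod markers summed to 9751, 4576 and 8410 CPM in OIR-1, OIR-2 and OIR-3. In Ctrl-1, Ctrl-2 and Ctrl-3 they summed to 16293, 4980 and 13233 CPM. The part of rod RNA in the Fzd4 values was not tested. Without Ctrl-2, which holds most of the Fzd4 UMIs of these cells, the log2 fold change of Fzd4 was −1.37 with an adjusted p of 0.61 in edgeR. With the replicate number as a block it was called at an adjusted p of 0.027 in edgeR, among 14 of 1819 genes (0.77%). Lrp5 gave 0, 24.4 and 7.42 CPM in these cells in OIR and 32.4, 76.8 and 35.6 CPM in Ctrl, on 0, 3 and 1 against 3, 17 and 1 UMIs. These values do not overlap either. A count of 0 in OIR-1 still allows 58.2 CPM (3 counts per library), above Ctrl-1 and Ctrl-3, and the gene was not tested.

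Lrp5 and Lrp6 are the co-receptors, and their spread over cell types differed. Lrp5 had its highest means, between 19.3 and 29.4 CPM, in RPE-like, VSMC-like, astrocyte-like, VEC-like and microglia-like cells, and Müller-like cells followed at 15.0 ± 2.2 CPM. The 5 neuronal types had means of at most 0.53 CPM, and the range of Müller-like cells did not reach theirs. Müller-like cells held between 44.2% and 77.9% of a sample's Lrp5 UMIs, and their level was between 13.0 and 17.2 CPM in OIR and between 11.9 and 16.9 CPM in Ctrl, with a log2 fold change of 0.04 ± 0.21 (SE). In VEC-like cells Lrp5 gave 2, 0 and 0 UMIs in OIR and 60, 1 and 3 in Ctrl, or 9.70, 0 and 0 CPM against 52.9, 17.4 and 51.5 CPM. The groups did not overlap, but a count of 0 still allows 288 CPM in OIR-2 and 491 CPM in OIR-3 (3 counts per library), so only OIR-1 sets a low value, and the gene did not pass the count filter.

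Lrp6 was found in all 11 cell types with means between 28.0 CPM in microglia-like and 96.8 CPM in RPE-like cells, and neighbours in that order overlapped. In rod-like cells, the type with most Lrp6 UMIs, OIR-1, OIR-2 and OIR-3 stood at 68.3, 73.4 and 72.7 CPM and Ctrl-1, Ctrl-2 and Ctrl-3 at 70.02, 89.2 and 88.4 CPM. Ctrl-1 lay within the OIR range, and Ctrl-2 and Ctrl-3, the Xist-bearing libraries, lay above it. The log2 fold change was −0.37 ± 0.12 (SE) with an adjusted p of 0.15 in edgeR. Rod-like samples with the same replicate number deviated together, and with the replicate number as a block the adjusted p was 0.044, in a fit that called 1327 of 11471 genes (11.6%). With a term for the Xist-bearing libraries the log2 fold change was −0.12 with an adjusted p of 0.72, and without Ctrl-1 it was −0.48 with an adjusted p of 0.024, in a fit that called 928 of 11763 genes (7.89%). OIR and the presence of Y-linked RNA cannot be told apart in the comparison with Ctrl-2 and Ctrl-3.

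Tspan12, the tetraspanin that strengthens Norrin binding, had its highest means in VSMC-like cells at 105 ± 73.9 CPM, VEC-like cells at 96.6 ± 101 CPM and astrocyte-like cells at 65.6 ± 55.4 CPM (SD, n = 6 each). Müller-like cells followed at 36.5 ± 5.8 CPM and, through their number, held between 43.9% and 78.8% of a sample's Tspan12 UMIs. There, the OIR samples stood at 39.6, 40.2 and 39.2 CPM and the Ctrl samples at 28.4, 41.6 and 29.9 CPM. The groups overlapped through Ctrl-2, and the log2 fold change was 0.20 ± 0.17 (SE) with an adjusted p of 0.66 in edgeR. In VEC-like cells Tspan12 gave 24, 3 and 0 UMIs in OIR and 81, 3 and 3 in Ctrl, or 116, 288 and 0 CPM against 71.5, 52.1 and 51.5 CPM. OIR-1 and OIR-2 lay above the Ctrl samples, OIR-2 through 3 UMIs of 1 cell out of 3. OIR-3 gave no UMI, so the groups overlap. In VSMC-like cells, which were not tested, it gave 7, 2 and 0 UMIs in OIR and 60, 12 and 8 in Ctrl, or 85.8, 60.9 and 0 CPM against 117, 214 and 149 CPM, all OIR values lying below. In cone bipolar-like cells the levels were low, at 5.36, 6.10 and 7.03 CPM in OIR and 1.05, 3.40 and 4.89 CPM in Ctrl, without overlap, and the gene did not pass the count filter there.

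Receptor and co-receptor UMIs occurred together in single VEC-like cells. In Ctrl-1, the sample with most VEC-like cells, 41 of 149 (27.5%) had an Lrp5 UMI, 51 (34.2%) an Lrp6 UMI and 56 (37.6%) a Tspan12 UMI. UMIs of Fzd4, of Tspan12 and of at least 1 of the co-receptors together were present in 34 of 149 cells (22.8%, exact 95% interval 16.3% to 30.4%), and in none of 2212 rod-like cells of that sample at a median of 2136 UMIs, which limits the share of cells with such UMIs to 0.136% and says nothing of cells that hold the RNA undetected. In OIR-1 it was 4 of 25 VEC-like cells (16%, interval 4.54% to 36.1%), at a median of 3734 UMIs per cell against 6880 in Ctrl-1. These are 1 library each at unequal depth, and the shares describe those libraries only.

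**Figure D3:**
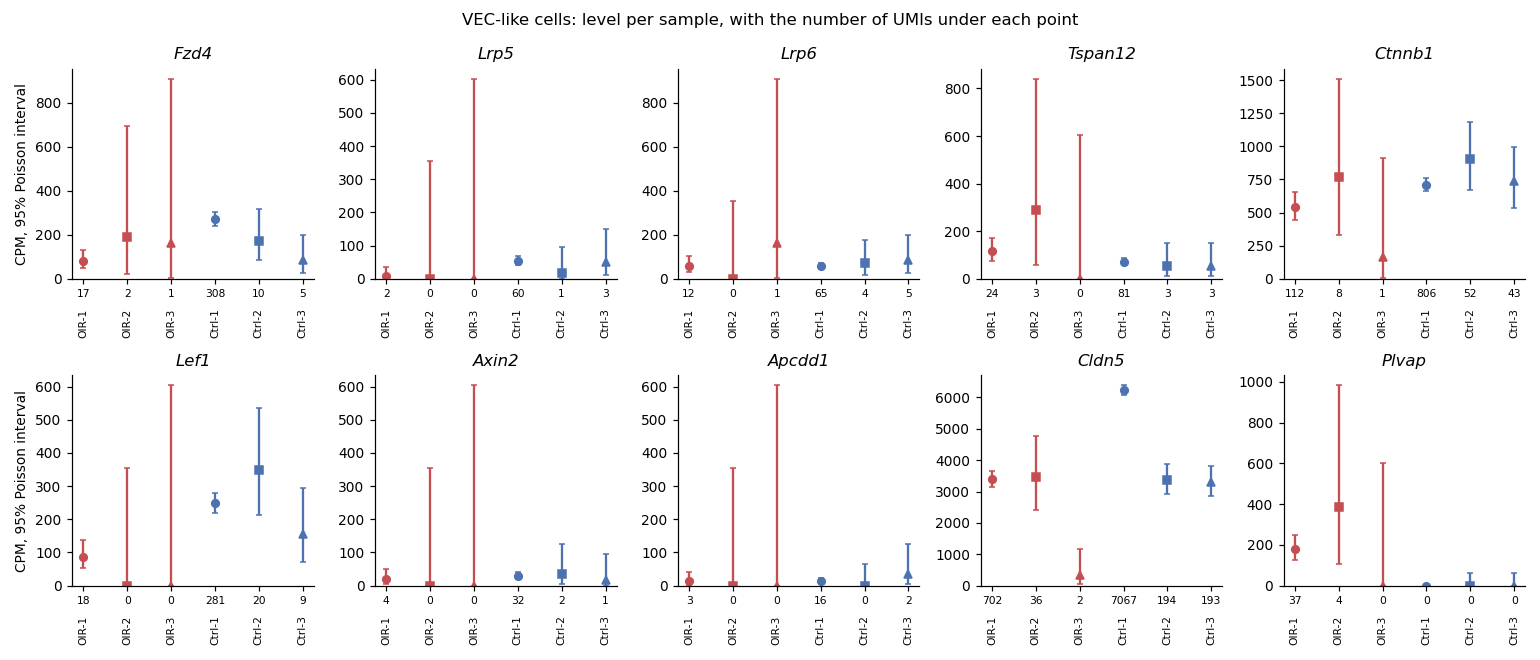
CPM of 9 of the genes and of Plvap in VEC-like cells of each sample, with 95% Poisson intervals for counting error only and the number of UMIs printed under each point. The intervals of OIR-2 and OIR-3 are wide, Lef1 lies lower in OIR-1 than in Ctrl-1, and Plvap has 37 and 4 UMIs in OIR-1 and OIR-2 and none in Ctrl.

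Ctnnb1, which encodes β-catenin, had its highest mean in VEC-like cells at 638 ± 259 CPM, and the other 10 types had means between 97.3 and 210 CPM. In VEC-like cells, OIR-1, OIR-2 and OIR-3 gave 543, 768 and 164 CPM, the last from 1 UMI, and Ctrl-1, Ctrl-2 and Ctrl-3 gave 711, 903 and 739 CPM. The groups overlapped, with a log2 fold change of −0.58 ± 0.56 (SE, adjusted p = 0.94 in edgeR), and −0.31 without OIR-3.

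Outside the endothelium, Ctnnb1 levels did not overlap between the groups in Müller-like, rod bipolar-like and cone bipolar-like cells, and were higher in OIR in each. Such a lack of overlap, in either direction, was found in 19.3% of all tested gene and cell type pairs, and in 4 of the 29 tested pairs of the 10 genes. Ctnnb1 levels did not overlap in VSMC-like cells either, an untested type. There, they were lower in OIR at 123, 122 and 28.7 CPM against 178, 143 and 168 CPM, on 10, 4 and 1 against 91, 8 and 9 UMIs. In Müller-like cells, OIR-1, OIR-2 and OIR-3 stood at 131, 147 and 150 CPM and Ctrl-1, Ctrl-2 and Ctrl-3 at 92.3, 117 and 103 CPM. In edgeR this was a log2 fold change of 0.39 ± 0.13 (SE) with an adjusted p of 0.18. In rod bipolar-like cells the levels were 139, 176 and 176 CPM against 113, 136 and 122 CPM, with a log2 fold change of 0.36 ± 0.13 (SE, edgeR adjusted p = 0.21). In cone bipolar-like cells they were 161, 186 and 196 CPM against 127, 151 and 147 CPM, with a log2 fold change of 0.33 ± 0.13 (SE, edgeR adjusted p = 0.32). None of the 3 passed the threshold, and in rod-like and cone-like cells the log2 fold changes were −0.04 and 0.06. In the same Müller-like cells, the 6 rod markers summed to between 1788 and 2461 CPM in OIR and between 2531 and 3984 CPM in Ctrl, with UMIs of all 6 in each sample. The 5 astrocyte markers summed to between 130 and 148 CPM in OIR and between 94.99 and 112 CPM in Ctrl, and the 7 RPE markers to between 529 and 581 CPM and between 383 and 406 CPM. The 12 endothelial markers summed to between 1063 and 1306 CPM in OIR and between 915 and 1039 CPM in Ctrl. Cldn5, which is not among them, stood at 0.90, 0.31 and 0 CPM in Müller-like cells of OIR-1, OIR-2 and OIR-3. In Ctrl-1, Ctrl-2 and Ctrl-3 it stood at 4.71, 0 and 0 CPM there. In VEC-like cells these markers summed to between 654 and 15163 CPM, and Cldn5 stood between 327 and 6235 CPM. Whether the marker UMIs in Müller-like cells came from other cells was not tested. The part of the marker sums in the Ctnnb1 values was not tested either.

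**Figure D4:**
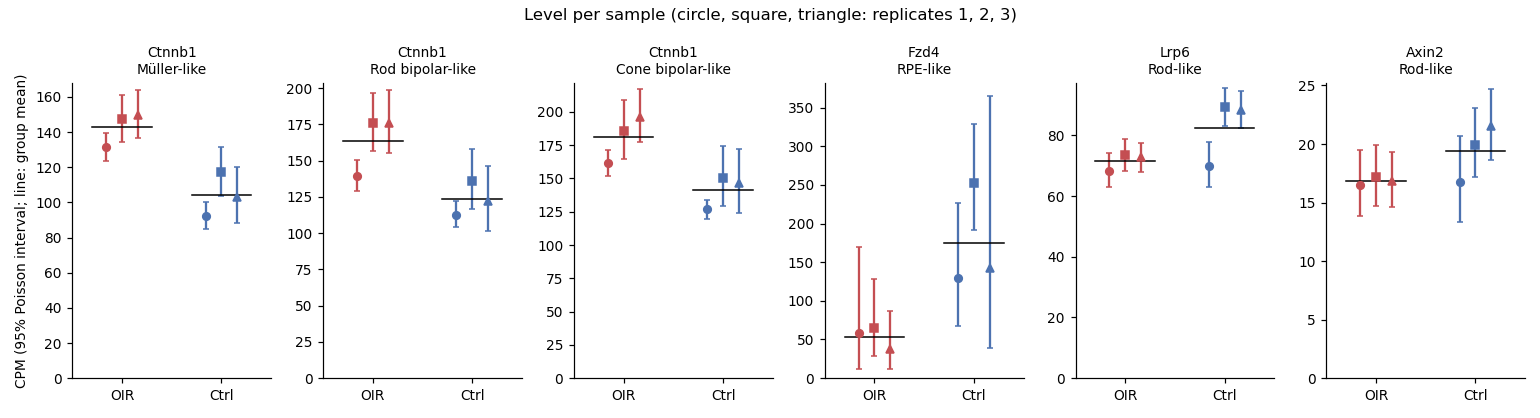
CPM per sample (vertical axis from 0) of Ctnnb1 in 3 cell types, Fzd4 in RPE-like cells, and Lrp6 and Axin2 in rod-like cells, with 95% Poisson intervals and group means as lines. Ctnnb1 and Fzd4 points do not overlap between OIR and Ctrl, as in 19.3% of all tested gene and cell type pairs. Ctrl-1 (circle) lies with the OIR samples for Lrp6 and Axin2.

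Lef1, a factor that partners β-catenin on DNA, had its highest level in VEC-like cells and a lower one in Müller-like cells. Its mean was 139.5 ± 139.1 CPM in VEC-like cells and 8.82 ± 0.97 CPM in Müller-like cells (SD, n = 6 each), where the log2 fold change was 0.09 ± 0.24 (SE). In VEC-like cells it gave 18, 0 and 0 UMIs in OIR-1, OIR-2 and OIR-3 and 281, 20 and 9 in Ctrl-1, Ctrl-2 and Ctrl-3. These were 87.3, 0 and 0 CPM against 248, 347 and 155 CPM, and the groups did not overlap. A count of 0 allows 288 CPM in OIR-2, which reaches into the Ctrl range, so OIR-1 is the single OIR sample that sets Lef1 below Ctrl. In those OIR-1 cells the endothelial markers summed to 6595 CPM. The 7 Müller markers summed to 7206 CPM there, the highest of the 6 samples, with UMIs of 4 of them. In Ctrl-1, Ctrl-2 and Ctrl-3 they summed to 4451, 2465 and 3213 CPM, with UMIs of 7, 3 and 3. Whether these UMIs came from other cells, and the part of either sum in the Lef1 value, was not tested. The gene did not pass the count filter, and with no filter its log2 fold change was −2.03 ± 0.81 (SE) with an adjusted p of 0.46 in edgeR. Without OIR-3 it passed the filter, with a log2 fold change of −1.67 (edgeR adjusted p = 0.42). Cells with a Lef1 UMI numbered 9 of 25 in OIR-1 (36.0%, exact 95% interval 18.0% to 57.5%) and 93 of 149 in Ctrl-1 (62.4%, interval 54.1% to 70.2%), at median depths of 3734 and 6880 UMIs.

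Axin2 and Apcdd1, an intracellular and a membrane inhibitor that the pathway itself induces in many tissues, rested on 39 and 21 UMIs in VEC-like cells. Axin2 gave 4, 0 and 0 UMIs in VEC-like cells of the OIR samples and 32, 2 and 1 in the Ctrl samples, or 19.4, 0 and 0 CPM against 28.2, 34.7 and 17.2 CPM, which overlap. Over cell types its means lay between 2.91 CPM in microglia-like and 23.2 CPM in astrocyte-like cells, and rod-like cells, at 18.1 ± 2.1 CPM, held between 19.9% and 74.5% of a sample's Axin2 UMIs. There, OIR-1, OIR-2 and OIR-3 stood at 16.5, 17.2 and 16.9 CPM and Ctrl-1, Ctrl-2 and Ctrl-3 at 16.7, 19.96 and 21.5 CPM. Ctrl-1 again lay within the OIR range. The log2 fold change was −0.37 ± 0.14 (SE) with an adjusted p of 0.20 in edgeR, and −0.14 with a term for the Xist-bearing libraries. With replicates 2 and 3 alone, a fit that called 2455 of 11595 genes (21.2%), Lrp6 and Axin2 in rod-like cells were both called.

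Apcdd1 was the rarest of the genes, with 121 UMIs in all kept cells. Rod bipolar-like cells held 43 of them, cone bipolar-like cells 28, and VEC-like and Müller-like cells 21 each. By mean level VEC-like cells stood first at 10.5 ± 13.6 CPM (SD, n = 6), before rod bipolar-like cells at 3.44 ± 2.08 CPM, and these ranges overlapped. In rod bipolar-like cells the OIR samples gave 8, 3 and 4 UMIs and the Ctrl samples 15, 6 and 7, or 1.68, 1.73 and 2.75 CPM against 2.76, 4.62 and 7.09 CPM. The values do not overlap, but OIR-3 and Ctrl-1 were nearly equal, and the gene was not tested because of its low counts. In VEC-like cells it gave 3, 0 and 0 UMIs in OIR and 16, 0 and 2 in Ctrl, where OIR-1 at 14.5 CPM and Ctrl-1 at 14.1 CPM did not differ beyond counting error.

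Cldn5, the tight junction gene of barrier endothelium, stood far higher in VEC-like cells than in any other type, without overlap, with a mean of 3351 ± 1870 CPM (SD, n = 6) against 2.47 CPM or less in every other type. It was not among the markers that named the cells. OIR-1, OIR-2 and OIR-3 gave 702, 36 and 2 UMIs, or 3404, 3455 and 327 CPM. Ctrl-1, Ctrl-2 and Ctrl-3 gave 7067, 194 and 193 UMIs, or 6235, 3368 and 3316 CPM. OIR-1 and OIR-2 therefore lay beside Ctrl-2 and Ctrl-3, Ctrl-1 lay far above and OIR-3 far below, and the groups overlapped. The log2 fold change was −0.77 ± 0.68 (SE) with an adjusted p of 0.93 in edgeR, and −0.34 ± 0.55 with an adjusted p of 0.99 without OIR-3. Of the 36 UMIs in OIR-2, 35 came from 1 cell.

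Cldn5 UMIs in other cells were most frequent in the libraries with most Cldn5 UMIs. Rod-like cells gave 8.95 CPM in Ctrl-1 and 3.79 CPM in OIR-1 and between 0.11 and 1.05 CPM in the other 4. In Ctrl-1, 46 of 2212 rod-like cells (2.08%) had a Cldn5 UMI against 134 of 149 VEC-like cells (89.9%). The genes with the pattern most like that of Cldn5 were Adgrl4, Ly6c1, Sox17, Vwf and 8430408G22Rik, with correlations between 0.939 and 0.956, of which Ly6c1 was a naming marker of VEC-like cells.

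Over VEC-like cells, tested despite their low number, and the 8 types of which no sample held fewer than 10 cells, 29 pairs of a gene and a cell type passed the count filter, and edgeR called none of them at an adjusted p under 0.05 with an absolute log2 fold change of at least 0.25. The share of all tested genes called was 0.427% in VEC-like, 2.75% in Müller-like, 2.74% in rod-like, 1.28% in cone-like, 2.42% in rod bipolar-like, 0.844% in cone bipolar-like, 0.0546% in amacrine-like, 0.495% in microglia-like and 0.055% in RPE-like cells. At an unadjusted p under 0.05 there were 6 of the 29 pairs by edgeR and 5 by DESeq2, which also called none after adjustment and left 1 adjusted p out. By edgeR, all genes at that p numbered 80 of 937 in VEC-like, 1792 of 11542 in Müller-like and 2078 of 11471 in rod-like cells. They numbered 1051 of 9368 in cone-like, 1350 of 9323 in rod bipolar-like and 1265 of 10307 in cone bipolar-like cells. In amacrine-like, microglia-like and RPE-like cells they numbered 211 of 3662, 467 of 5046 and 92 of 1819. By DESeq2 the counts were 59, 1296, 1829, 679, 981, 831, 147, 258 and 39 in the same order. Log2 fold changes of the 29 pairs ran from −1.92 to 0.39 with a median of −0.09, against a median of −0.00438 over all 63475 gene and cell type pairs tested. In 4 of the 29 pairs the samples of the groups did not overlap, namely the 3 of Ctnnb1 and that of Fzd4 in RPE-like cells, against 19.3% of all tested pairs.

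**Figure D5:**
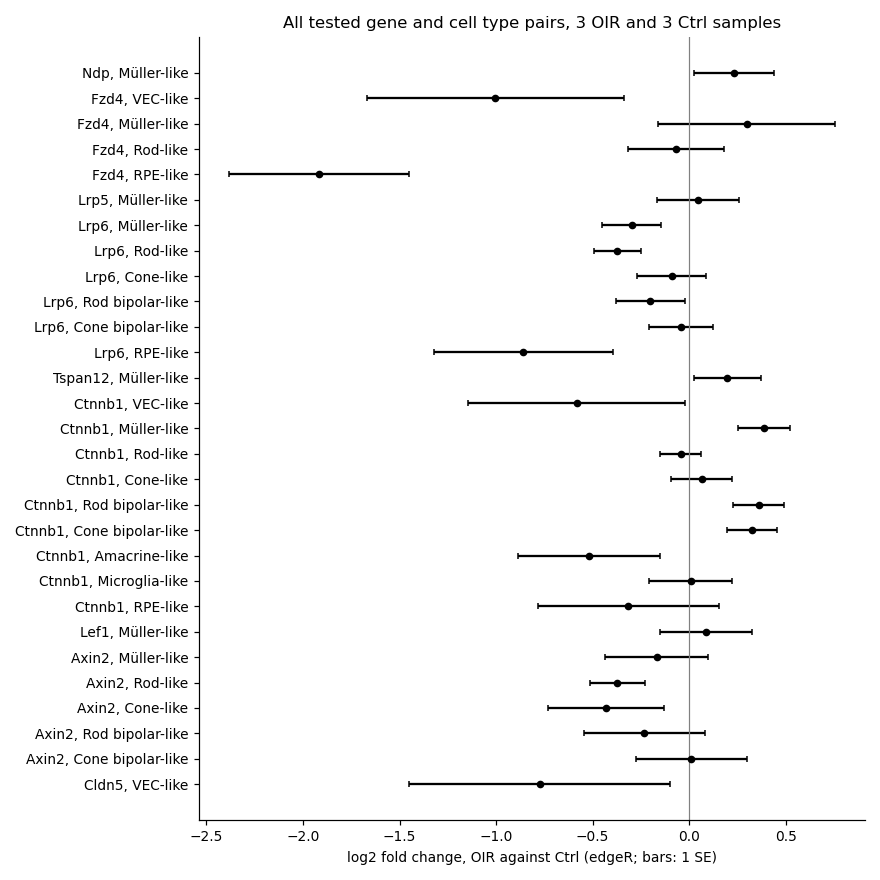
Log2 fold change, OIR against Ctrl (horizontal axis), with 1 SE, of the 29 tested pairs of gene and cell type (vertical axis), from edgeR on UMIs summed per sample. Fzd4 in RPE-like cells lies lowest at −1.92 and Ctnnb1 in Müller-like cells highest at 0.39, and none passed the adjusted threshold.

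Of the 77 other genes of the pathway list, 59 passed the count filter in at least 1 cell type, giving 211 pairs with a median log2 fold change of −0.01. One pair was called, while of all 63475 gene and cell type pairs tested 661 were called higher and 435 lower. Slc2a1, the glucose transporter GLUT1, was higher in OIR rod bipolar-like cells, at 140, 105 and 70.1 CPM in OIR-1, OIR-2 and OIR-3 against 49.7, 36.2 and 43.5 CPM in Ctrl-1, Ctrl-2 and Ctrl-3. The groups did not overlap, and the log2 fold change was 1.24 ± 0.24 (SE) with an adjusted p of 0.013 in edgeR. Without OIR-2 or Ctrl-2 the adjusted p was 0.064 or 0.094, and with a term for the Xist-bearing libraries it was 0.088. Slc2a1 was not called in any other tested type. Its log2 fold change was 1.13 in microglia-like, 1.01 in amacrine-like, 0.67 in cone bipolar-like and 0.37 in Müller-like cells. In RPE-like, rod-like, cone-like and VEC-like cells it was 0.13, 0.03, −0.02 and −0.59. The list groups of other ligands, other receptors and antagonists gave no call in 7, 39 and 19 pairs. Those of cytoplasmic relay, nuclear partners and target genes gave none in 69, 33 and 6 pairs. The barrier group gave the 1 call among 38 pairs.

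In VEC-like cells 10 list genes passed the count filter over all 6 samples and none was called. Among the barrier genes with most UMIs, Slc2a1 gave 1818, 4223 and 0 CPM in the OIR samples and 4645, 2570 and 2371 CPM in Ctrl, and the efflux pump Abcg2 gave 296, 1344 and 0 CPM against 1062, 226 and 447 CPM, both overlapping. The efflux pump Abcb1a gave 107, 384 and 0 CPM against 795, 573 and 515 CPM, which do not overlap, on 22, 4 and 0 against 901, 33 and 30 UMIs. Its log2 fold change was −2.16 ± 0.71 (SE) with an adjusted p of 0.32 in edgeR. Endothelial markers summed to 6595 CPM in the same OIR-1 cells, against 12097 to 14373 CPM in Ctrl, and their part in the Abcb1a value was not tested. Among receptors, Fzd6, Adgra2 and Ryk led with 278, 125 and 86 UMIs in all VEC-like cells. Among relay genes Csnk1a1, Gsk3b and Csnk1e had most, with 464, 351 and 176. Nuclear partners were led by Ctnnbip1, Tcf7l2 and Tcf7 with 329, 96 and 85, and targets by Sox17, Ccnd1 and Tnfrsf19 with 763, 124 and 76. Antagonists reached at most 27 UMIs (Dkk3, before Kremen1 and Znrf3), and ligands at most 7 (Wnt5b, before Wnt4 and Wnt11).

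Plvap, the fenestration gene of the barrier list, was chosen for mention after its values were seen. It gave 37, 4 and 0 UMIs in VEC-like cells of OIR-1, OIR-2 and OIR-3 and none in the 1249238 UMIs of the 3 Ctrl samples. Pooled over the OIR samples this was 184 CPM, or 76.6 times the 2.40 CPM that 3 counts over the Ctrl group allow. That ratio leaves out counting error in OIR and the spread between libraries. It rests mostly on OIR-1, where 1 cell held 15 of the 37 UMIs, and on Ctrl-1, which held 1133446 of the Ctrl UMIs. The Plvap UMIs lay in 8 of 25 VEC-like cells of OIR-1 and in 1 of 3 cells of OIR-2. All 8 cells of OIR-1 held UMIs of Cldn5 and of Slc2a1, and 4 held UMIs of Mfsd2a, a lipid transporter of barrier endothelium. Of all 25 VEC-like cells of OIR-1, 19 held a Cldn5 UMI, and depth ran from 796 to 24283 UMIs per cell. The part of depth in these joint detections was not tested. No test of Plvap is given, because the gene was picked for its values and did not pass the count filter over all 6 samples. Among the alternatives, it was called with no filter and without Ctrl-2 or Ctrl-3. It passed the filter but was not called without OIR-3 or without Ctrl-1. Those fits cannot serve as tests either, since the gene was picked for its values.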

How the data were processed

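Dissociated retina of 3 OIR and 3 Ctrl samples, each a pool of 2 mice, was profiled by droplet single-cell RNA sequencing. The authors deposited filtered matrices of raw UMI counts per gene and barcode, made with Cell Ranger (software version 3.1.0 per the file headers) on mm10 per the labels, while the methods of the study name a human build. Barcodes with 500 to 5000 genes and at most 20% mitochondrial UMIs were kept, and the groups were integrated and clustered in Seurat 5.3.0 (R 4.3.3) from 2000 variable genes, 15 components, 20 neighbours and a resolution of 0.5, with 26 listed genes left out of the variable genes. Clusters were named from fixed markers, and the erythrocyte, lens and leukocyte lists were not used as names. A score was the level of each marker relative to its highest cluster, averaged over the list. The VEC-like cluster scored 1 for erythrocyte and 0.988 for endothelial markers. No cells were removed as doublets in the reported values, and an alternative removed the 2491 highest Scrublet scores (6.46%). Raw counts were summed per sample and cell type and tested in edgeR 4.0.16 by the quasi-likelihood test (TMM, filterByExpr, Benjamini-Hochberg over all genes kept), in VEC-like cells and in each type of which no sample held fewer than 10 cells, 9 types in all. CPM are these sums scaled to 1000000. Depth per library ranged from 15788524 to 42606878 UMIs, and intervals and the limit of 3 counts set by a count of 0 cover counting error only.

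The members and lists were chosen with earlier results of these data known. Named were all 10 genes, the list genes called (up to 3 per cell type), the 3 genes of each list group with most UMIs in VEC-like cells, and the 5 genes most like Ndp, Fzd4 and Cldn5 in pattern among those reaching 20 CPM in at least 3 sums, of which some are not reported here. Alternatives were DESeq2 1.42.0, no count filter, a 10% mitochondrial limit, Scrublet, clusters without integration (scanpy 1.11.5), a gate of 2 endothelial markers, a term for Xist, replicates 2 and 3 alone, the replicate block and each replicate left out. The replicate numbers come from the sample titles. Deviations of same-numbered samples from their group means correlated at 0.497, 0.284 and 0.352 in rod-like cells. In cone bipolar-like cells they correlated at 0.357, 0.118 and 0.204. In those types and in RPE-like cells every sample correlated best with its own number, which held in no other tested type.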

Additional observations from a re-analysis of the deposited data

How the results depend on the processing

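The count of called pairs of the 10 genes was 0, and it was 2 with replicates 2 and 3 alone (Lrp6 and Axin2 in rod-like cells, where 21.2% of all genes were called) and between 0 and 1 with a library left out, the 1 being Lrp6 in rod-like cells without Ctrl-1 (7.89% of all genes called). The count over the other list genes was 1, against 2 with DESeq2, 13 with no filter, 10 with replicates 2 and 3 alone, 3 with a term for Xist and between 1 and 4 with a library left out, the 4 without Ctrl-1. Ndp in Müller-like cells turned to −0.059 with replicates 2 and 3 alone and ran from −0.014 (without Ctrl-1) to 0.36 with a library left out. The difference in the Müller-like share of Ndp UMIs turned to −3.45 percentage points with clusters made without integration and ran from 2.641 to 6.6004 with a library left out. Fzd4 in VEC-like cells ran from −1.27 to −0.35 (without OIR-1) over the 5 libraries that could be left out and Cldn5 from −1.26 to −0.34 over 6, and their 9 and 15 alternatives kept the direction without a call. Fzd4 in VEC-like cells did not pass the count filter without Ctrl-1, with replicates 2 and 3 alone, the lower mitochondrial limit, Scrublet, clusters without integration or the marker gate. The causes were not tested. Over all genes, the calls were 636 with DESeq2 against 314 in rod-like cells, 39 against 25 in microglia-like and 9 against 4 in VEC-like cells, and with no filter 74 in VEC-like, 721 in Müller-like, 590 in rod-like, 310 in cone-like, 593 in rod bipolar-like, 447 in cone bipolar-like, 44 in amacrine-like, 206 in microglia-like and 13 in RPE-like cells. VEC-like cells of OIR-2 and OIR-3, 3 and 5 in number, limit every endothelial comparison.

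With the replicate block 2 pairs of the 10 genes were called. They were Lrp6 in rod-like cells (11.6% of all genes called) and Fzd4 in RPE-like cells (log2 fold change −1.81, adjusted p = 0.027 in edgeR, 0.77% of all genes called). Of the other list genes, 8 pairs of a gene and a cell type were called, with Slc2a1 in both rod bipolar-like and cone bipolar-like cells. In RPE-like cells the samples share only a number, and every sample there correlated best with its own number. The block moved the calls over all genes from 314 to 1327 in rod-like, from 87 to 520 in cone bipolar-like, from 120 to 311 in cone-like, from 226 to 538 in rod bipolar-like, from 317 to 502 in Müller-like, from 2 to 1 in amacrine-like and from 1 to 14 in RPE-like cells, and it changed no other call of the 10 genes.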

Other observations

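Plvap RNA was also found outside vessels. In cluster 7 of the cone bipolar-like cells, led by Kcng4, Epha7 and Neurod2, it stood at 48.7, 28.1 and 11.5 CPM in OIR-1, OIR-2 and OIR-3 and at 45.6, 21.7 and 11.1 CPM in Ctrl-1, Ctrl-2 and Ctrl-3, so same-numbered samples lay close to each other and the groups overlapped. In the other clusters of cone bipolar-like cells it was at most 15.7 CPM in any sample. Cluster 7 was singled out after its values were seen. In rod bipolar-like cells Plvap did not pass the count filter. With no filter it was called higher in OIR there, with a log2 fold change of 2.38 ± 0.62 (SE, edgeR). That fit called 593 of 17506 genes and cannot serve as a test, since Plvap was picked for its values.

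Cluster 6, which was led by crystallin genes and kept unnamed, held Ctnnb1 at 188, 127 and 141 CPM in the OIR samples and at 123, 88.7 and 126 CPM in the Ctrl samples. The groups were barely apart, since OIR-2 stood at 126.9 CPM and Ctrl-3 at 126.2 CPM on 33 UMIs, which do not differ beyond counting error. Lrp6 stood between 48.4 and 79.3 CPM in OIR and between 45.9 and 74.1 CPM in Ctrl there, which overlap, and Cldn5 gave 3 UMIs in all 6 samples together. In clusters made without integration, the cluster led by crystallin genes held 110 cells, of which 109 came from OIR-2.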
